A study of Mus musculus with 16 samples.

Results

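Interferon-stimulated genes are the genes that cells switch on when interferon binds its receptors. The set described here holds 32 of them, taken by name from the annotation of the arrays, with the brightest probe standing for a gene that has several; all 32 have a probe among the 28095 gene names on the array. They comprise 4 sensors of nucleic acid, 4 transcription factors, the ubiquitin-like modifier Isg15 with its protease Usp18, 3 IFIT proteins, 6 OAS and OASL proteins, 2 Mx proteins, 5 interferon-inducible GTPases and 6 other effectors. The study measured RNA of aortas from female C57BL/6 mice that lack ApoE and develop atherosclerosis, that had been ovariectomized at 4 to 5 weeks of age and that ate a Western-type diet rich in fat. A pellet was placed under the skin 2 weeks after the operation and was made to release its content for 90 days, and the aorta, from behind the arch down to a point above the kidney branches, was taken after 78 to 90 days. The 4 groups had 4 arrays each and were medroxyprogesterone acetate (MPA), its own placebo, norethisterone acetate (NET-A) and its own placebo; all animals, placebo included, thus lacked ApoE and ovaries. MPA and NET-A are synthetic progestins used in contraception and hormone therapy, MPA being derived from progesterone and NET-A from testosterone. The labels give no doses and do not say whether arrays of a group come from separate animals, so a p-value here covers only the spread from sample to sample, part of which may be technical.

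Type I interferons signal through the receptor chains Ifnar1 and Ifnar2, the kinases Jak1 and Tyk2, and a complex holding Stat2 and Irf9 that binds the interferon-stimulated response element (ISRE) in promoters. Type II interferon, interferon gamma, signals through Ifngr1 and Ifngr2 to the gamma-activated site (GAS) in promoters. IFIT, OAS, Mx and ISG15 genes respond mainly to the first route, whereas Irf1 and the GTPases of the GBP and IRG families respond strongly to the second. In the atherosclerotic aorta both routes are known to act in macrophages and in the cells of the vessel wall.

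Promoter stretches are shown for 10 members because the 2 routes use different binding motifs and because the type I genes and the GTPases are described apart below. RefSeq windows of 300 bases (build GRCm38.p6, 250 bases before to 50 after the start of transcription) were at hand for 23 of the 32 members. The ISRE-like letters GAAANNGAAA, searched on both strands, were found in 15 of these 23 members, against 3.99% of all 27025 gene symbols with a window. The GAS-like letters TTCNNNGAA, which read the same on both strands, were found in 5 of the 23, against 9.55% of all symbols. A match is a description of the letters and does not show that a factor binds. Each stretch below is 30 bases long, lies upstream of the start and runs 5′ to 3′ along the gene's strand, with every match to either motif in capitals.
Isg15: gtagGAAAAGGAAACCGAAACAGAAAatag
Ifit1: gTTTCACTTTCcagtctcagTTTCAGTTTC
Ifit3: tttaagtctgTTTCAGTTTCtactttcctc
Rsad2: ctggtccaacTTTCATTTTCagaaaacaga
Oas1a: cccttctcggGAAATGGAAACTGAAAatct
Gbp2: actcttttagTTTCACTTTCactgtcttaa
Gbp3: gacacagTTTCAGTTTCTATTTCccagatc
Ifit2: catgggagcTTCCTGGAAgaatggataaaa
Irf1: aacagcctgatTTCCCCGAAatgatgaggc
Igtp: gccatTTCTAGGAActGAAACTGAAAgctg

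The Isg15 stretch (chr4:156200871-156200900, minus strand) holds 3 overlapping ISRE-like matches, and the Ifit1 stretch (chr19:34640784-34640813, plus strand) holds 2 separate ones. Ifit3 (chr19:34583397-34583426, plus strand), Rsad2 (chr12:26456553-26456582, minus strand) and Gbp2 (chr3:142620594-142620623, plus strand) hold 1 each. Oas1a (chr5:120907526-120907555, minus strand) and Gbp3 (chr3:142559992-142560021, plus strand) hold 2 overlapping matches each. The stretches of Ifit2 (chr19:34550444-34550473, plus strand) and Irf1 (chr11:53769913-53769942, plus strand) hold a GAS-like match and none to the ISRE-like letters. Igtp (chr11:58199506-58199535, plus strand) holds 1 of each, side by side. The ISRE-like letters thus occur in type I reporters and in GTPases alike.

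Levels below are log2 signals minus the 75th percentile of their array, so 0 is the brightness that 75% of the probes stay under, and they are compared between groups for the same probe and not between genes. Between 46.3% and 78.5% of the spots of an array were well above background, no spot was saturated, and arrays of a group correlated with each other at r between 0.952 and 0.987. The 8 markers of smooth muscle, the main cell of the aortic wall, were all kept on the arrays, with mean levels between 5.06 and 5.81. Array 2 of the MPA group was the dimmest. The placebo arrays of the MPA and NET-A experiments were hybridised on different slides and scanned with different software versions, so their levels are set side by side with no test.

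Most members were measurable in these aortas. Of the 32, 26 were well above background on all 16 arrays. Genes were tested where 4 or more of an experiment's 8 arrays showed their probe well above background, as was so for 28 members in the MPA experiment and 31 in the NET-A experiment. No array showed Oas1g well above background. Mx1, whose gene is defective in most inbred mouse strains, C57BL/6 among them, was above background on 0 of 8 arrays of the MPA experiment and on 3 NET-A and 3 placebo arrays. Oasl1 was above background on 1 MPA array and 2 placebo arrays and was not tested in that experiment. Oas3 was above background on 2 of 4 MPA arrays and on no placebo array, and was left out of the main test of that experiment. In the fit with no filter on dim probes it was 1 of 3 members higher in MPA at an unadjusted p under 0.05 (limma). In that fit 2.45% of all genes were higher at that threshold. The median level of the 32 members was 0.48 in MPA arrays and 0.51 in their placebo arrays, and -0.30 in NET-A arrays and 0.14 in their placebo arrays.

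**Figure D1:**
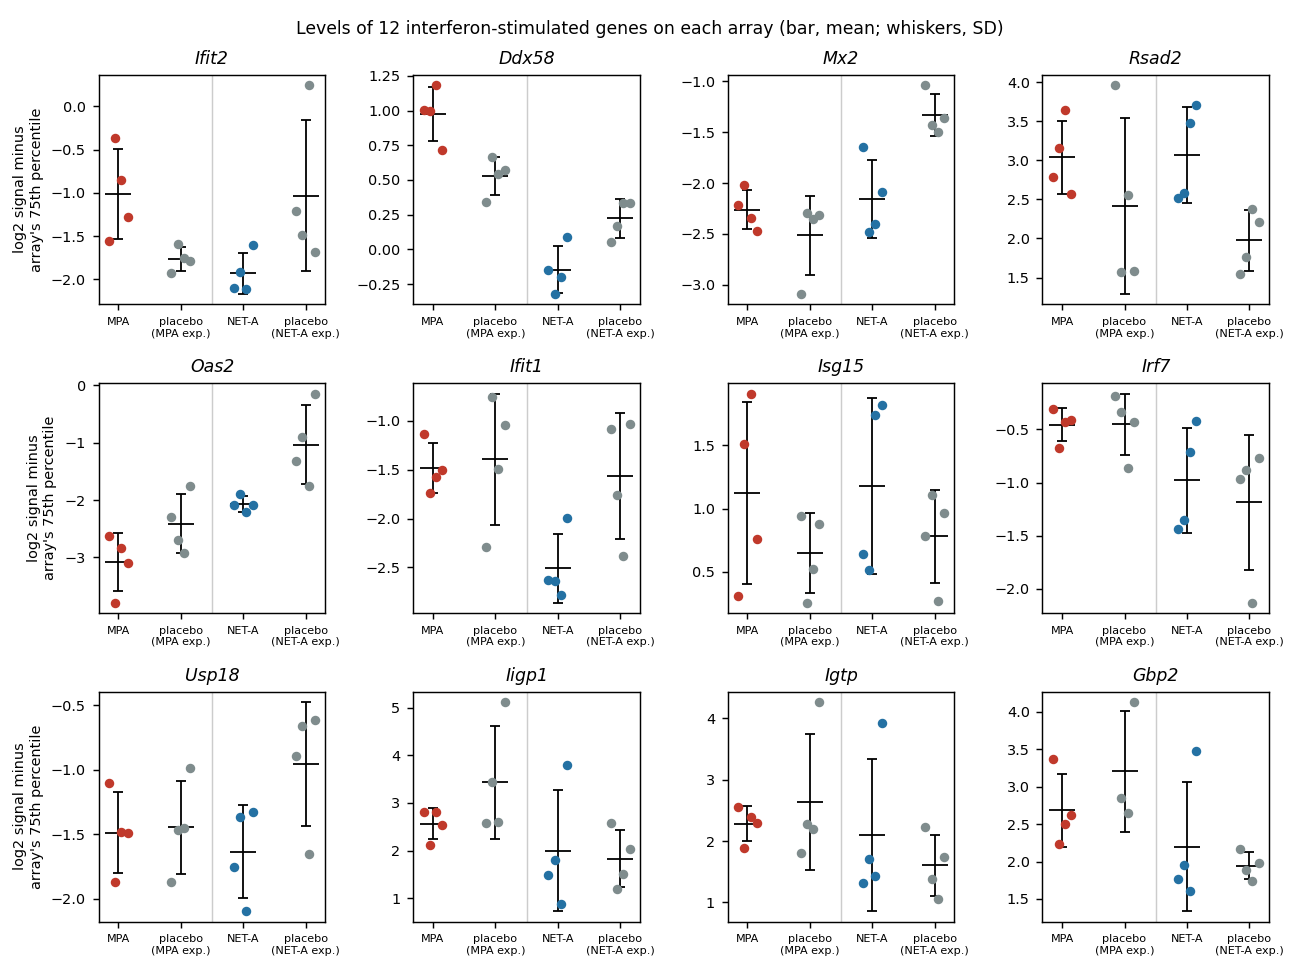
Level of 12 members on each of the 16 arrays, as log2 signal minus the array's 75th percentile; each point is an array, the bar is the group mean and the whiskers are 1 SD, and the y axis differs between panels. Ifit2 and Ddx58 do not overlap between MPA and its placebo, Mx2, Rsad2 and Oas2 do not overlap between NET-A and its placebo, and the Iigp1, Igtp and Gbp2 panels each have 1 high placebo array in the MPA experiment and 1 high NET-A array.

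In MPA-treated aortas the interferon-stimulated genes as a set lay close to placebo, with Ifit2 and Ddx58 on the high side. The GTPases lay on the low side, with a median change of -0.42 that was -0.06 without placebo array 4. No gene passed an adjusted p of 0.05 (limma, Benjamini-Hochberg over 15230 genes; 940 genes, 6.17%, had an unadjusted p under 0.05), and thus 0 of the 28 members. The unadjusted p was under 0.05 for 2 members, both higher in MPA, against 3.47% of all genes that were higher and 2.71% that were lower at that threshold. With normexp background correction 4 members were higher (Ifit2, Mx2, Ifi44 and Dhx58) and 4 lower (Gbp2, Gbp3, Iigp1 and Parp14) at that threshold, and so were 18.9% and 9.21% of all genes. The 2 groups of 4 arrays did not overlap for these same 2 members, against 3.99% of all genes. The log2 change lay above 0 for 10 members and below 0 for 18 (47.6% of all genes lay above and 52.4% below 0), with a median of -0.03 for the members and -0.01 for all genes.

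Ddx58 encodes RIG-I, a cytoplasmic sensor of viral RNA. Its level was 1.00, 1.00, 1.18 and 0.71 in MPA arrays, against 0.34, 0.66, 0.54 and 0.57 in placebo arrays. All 4 MPA arrays lay above all 4 placebo arrays. The log2 change was 0.44 ± 0.15 (SE), or 1.36-fold, with an unadjusted p of 0.0175 and an adjusted p of 0.79 (limma), and it was 0.50 on slide 1 and 0.39 on slide 2. The probe, at chr4:40156918-40156977 (mm9), is the brightest of the gene's 4; of the others, 2 were measurable in the MPA experiment and differed by -0.01 and 0.42. Without MPA array 3, with normexp or with the mean of its probes, Ddx58 no longer had an unadjusted p under 0.05. Without MPA array 1 there were 5 such members (Ifit2, Ddx58 and Isg15 higher, Oas2 and Gbp3 lower), against 3.97% of all genes higher and 4.71% lower in that fit.

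The IFIT proteins bind viral RNA and block its translation. Ifit2 had levels of -1.55, -0.36, -0.86 and -1.28 in MPA arrays, against -1.92, -1.59, -1.75 and -1.79 in placebo arrays. The groups did not overlap, although MPA array 1 lay only just above the highest placebo array. Its log2 change of 0.75 ± 0.25 (SE; 1.68-fold; probe at chr19:34648307-34648366, mm9) had an unadjusted p of 0.0146 and an adjusted p of 0.785 (limma), with 0.80 on slide 1 and 0.70 on slide 2. Ifit1 gave -1.14, -1.74, -1.57 and -1.50 in MPA arrays, against -2.30, -0.75, -1.49 and -1.04 in placebo arrays, and thus spread more among placebo arrays than between the groups. Ifit3 differed by 0.05 ± 0.38 (SE).

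Isg15, which is attached to proteins much as ubiquitin is, had levels of 0.31, 1.51, 1.91 and 0.76 in MPA arrays, against 0.94, 0.26, 0.52 and 0.88 in placebo arrays. Usp18, the protease that takes Isg15 off again and restrains the type I receptor, had -1.10, -1.87, -1.48 and -1.49 in MPA arrays, against -1.87, -1.47, -1.46 and -0.99 in placebo arrays. Both overlapped between the groups, with log2 changes of 0.47 ± 0.34 and -0.04 ± 0.23 (SE). The transcription factors were close to placebo: Irf7, the amplifier of the type I response, had -0.31, -0.67, -0.43 and -0.42 in MPA arrays, against -0.19, -0.33, -0.86 and -0.43 in placebo arrays. Irf1, a factor induced by interferon gamma, had 3.42, 2.94, 3.15 and 3.22 in MPA arrays, against 2.97, 2.88, 3.15 and 3.67 in placebo arrays. The changes of Irf1, Irf7, Irf9 and Stat2 all lay between -0.01 and 0.06, with 95% intervals that reach from -0.54 to 0.66.

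OAS proteins make short oligoadenylates that activate RNase L. Oas2 had levels of -2.62, -3.79, -2.84 and -3.09 in MPA arrays, against -2.30, -2.69, -2.92 and -1.75 in placebo arrays. The groups overlapped, 1 of the 4 MPA arrays was not above background for this probe, and the log2 change of -0.67 ± 0.32 (SE) turned to 0.48 with normexp background correction. Oas1a had 0.55, 0.26, 0.52 and 0.56 in MPA arrays, against 0.57, 0.35, 0.24 and 0.76 in placebo arrays, and overlapped throughout. Mx2, a dynamin-like GTPase, had -2.22, -2.01, -2.34 and -2.47 in MPA arrays, against -3.09, -2.30, -2.35 and -2.32 in placebo arrays, where placebo array 1 stood low. Dhx58, or LGP2, a regulator of the RIG-I family, had -2.50, -2.12, -2.56 and -2.22 in MPA arrays, against -3.34, -2.94, -2.30 and -2.04 in placebo arrays, with changes of opposite sign on slide 1 (0.83) and slide 2 (-0.23).

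The 5 GTPases, which attack the vacuoles of intracellular pathogens, all lay below 0 in the MPA comparison, with a median of -0.42, and each overlapped between the groups. Iigp1 had levels of 2.81, 2.11, 2.80 and 2.55 in MPA arrays, against 2.57, 3.43, 2.60 and 5.12 in placebo arrays. Igtp had 2.56, 1.88, 2.40 and 2.30 in MPA arrays, against 1.81, 2.27, 2.20 and 4.27 in placebo arrays. Gbp3 had 1.98, 1.11, 1.27 and 1.30 in MPA arrays, against 1.68, 1.55, 1.58 and 2.52 in placebo arrays. Placebo array 4 was the highest array of all 8 for each of these genes. Gbp2 showed the same array on top, with 3.37, 2.23, 2.50 and 2.63 in MPA arrays, against 2.84, 2.64 and 4.13 on placebo arrays 2, 3 and 4; its spot on placebo array 1 was flagged by the scanner software and left out, so 3 placebo values entered the fit. Without placebo array 4 the median of the 5 genes was -0.06, with 1 above and 4 below 0. The members' counts turned to 20 above and 8 below 0, with a median of 0.09, against -0.01 for all genes in that fit. Ifit2 and Ddx58 were the 2 members with an unadjusted p under 0.05, both higher, against 3.55% of all genes higher and 2.84% lower.

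The 2 slides of the MPA experiment, which each held 2 arrays of each group, did not give the set the same direction. On slide 1, 17 members lay above 0 and 11 below, with a median of 0.14, and on slide 2, 6 lay above and 22 below, with a median of -0.25. The sign was the same on both slides for 13 of 28 members (4 above and 9 below 0), against 51.7% of all genes, 25.3% above and 26.4% below 0. Ifit2, Ddx58, Isg15 and Rsad2 were the 4 above 0 on both. With the slide as a block Ifit2 and Ddx58 had an unadjusted p under 0.05, 2 of 28 members, against 6.63% of all genes. The smallest adjusted p among members in that fit was 0.695 (limma).

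**Figure D2:**
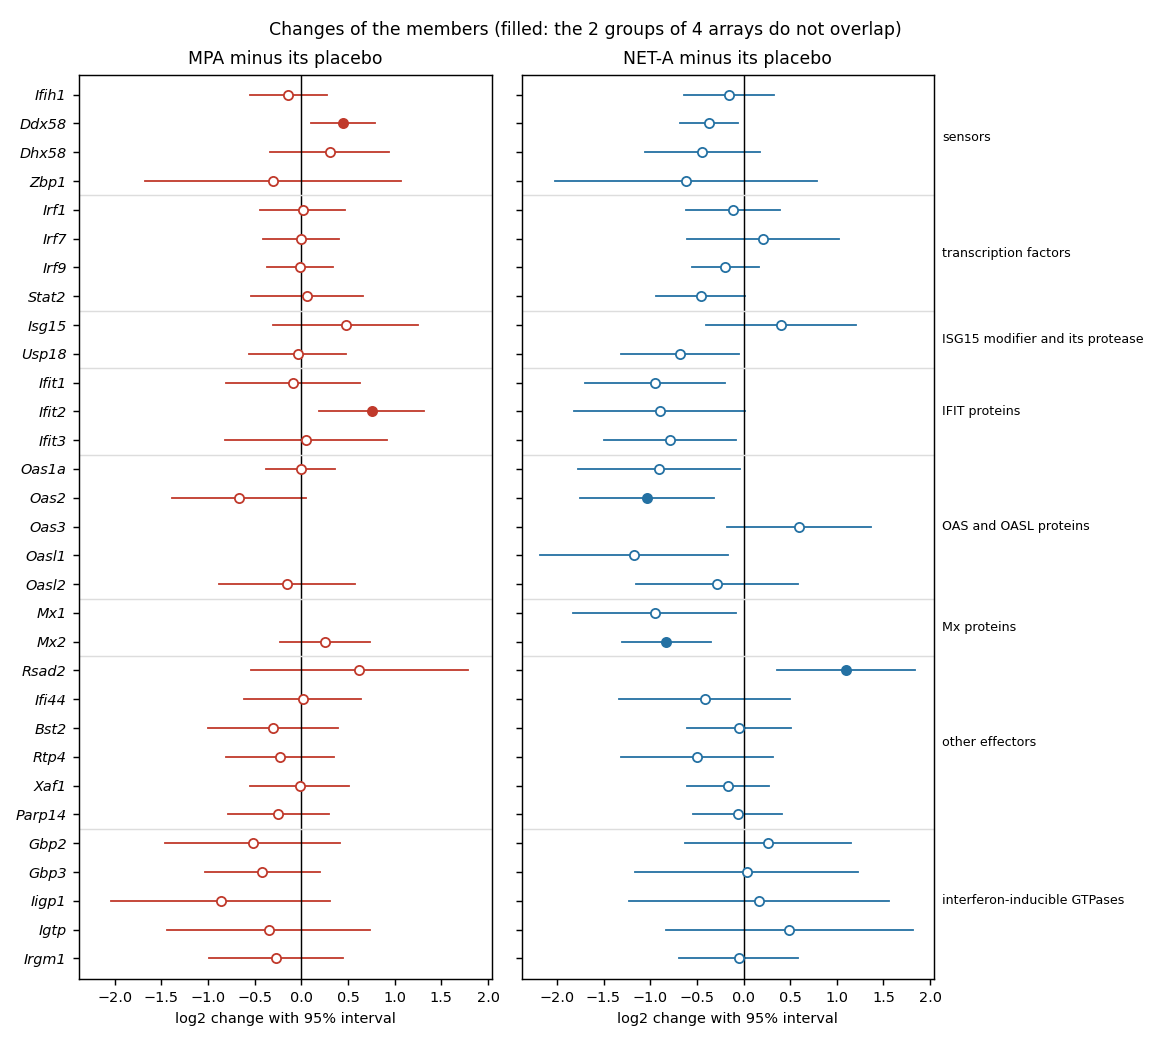
Log2 change of each kept member with its 95% interval (limma), MPA minus its placebo on the left and NET-A minus its placebo on the right, grouped by role; filled points mark members whose 2 groups of 4 arrays do not overlap. In the MPA panel Ifit2 and Ddx58 are filled, and in the NET-A panel Oas2 and Mx2 lie below 0 and Rsad2 above 0.

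In NET-A-treated aortas the antiviral members lay mostly below placebo, among them Mx2, Oas2, Ifit1, Ifit3, Oasl1, Oas1a, Mx1, Usp18 and Ddx58, and Rsad2 lay above it. No gene passed an adjusted p of 0.05 (limma, Benjamini-Hochberg over 20924 genes; 1284 genes, 6.14%, had an unadjusted p under 0.05), and thus 0 of the 31 members. These 9 members were lower and Rsad2 was higher at an unadjusted p under 0.05, against 3.62% of all genes that were lower and 2.52% that were higher. With normexp, which moved the median of all genes to -0.13, 5 were lower (Ifit1, Ifit2, Oas2, Oasl1 and Mx2) and Rsad2 was higher, against 1.52% and 1.14% of all genes. The groups did not overlap for 3 members, 2 lower and 1 higher in NET-A, against 3.89% of all genes, 2.28% lower and 1.61% higher. The log2 change lay below 0 for 23 members and above 0 for 8 (54.4% of all genes lay below and 45.6% above 0), with a median of -0.28 for the members and -0.02 for all genes. In whole aortas, fewer cells that carry a transcript and less of it per cell cannot be told apart.

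Mx2 had levels of -1.65, -2.48, -2.41 and -2.09 in NET-A arrays, against -1.03, -1.43, -1.50 and -1.36 in placebo arrays (probe at chr16:97782327-97782386, mm9). Every NET-A array lay below every placebo array. The log2 change was -0.83 ± 0.21 (SE), or 0.564-fold, with an unadjusted p of 0.00395 and an adjusted p of 0.612 (limma), and it was -0.61, -0.98 and -0.86 on slides 3, 4 and 5. Mx1 differed by -0.95 ± 0.38 (SE), on a probe near background.

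The OAS family held the largest negative changes. Oas2 had levels of -2.09, -1.89, -2.21 and -2.08 in NET-A arrays, against -1.33, -0.91, -1.75 and -0.15 in placebo arrays (probe at chr5:121180434-121180493, mm9). The NET-A arrays lay close together and all below the placebo arrays, with a log2 change of -1.04 ± 0.31 (SE; 0.488-fold), an unadjusted p of 0.0104 and an adjusted p of 0.637 (limma). Oas1a had -1.11, -0.76, -1.10 and -0.28 in NET-A arrays, against 0.11, 0.19, -0.89 and 0.98 in placebo arrays. Oasl1, an OAS-like protein, had -3.73, -3.10, -3.36 and -2.91 in NET-A arrays, against -1.26, -2.09, -3.42 and -1.65 in placebo arrays. Both overlapped with placebo through placebo array 3 alone, and their log2 changes were -0.91 ± 0.38 and -1.17 ± 0.44 (SE). Oas3 lay above 0 at 0.59 ± 0.34 (SE), while a second Oas3 probe gave -0.35 and normexp gave -0.11, and Oasl2 gave -0.28 ± 0.38 (SE).

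All 3 IFIT genes lay below 0. Ifit1 had levels of -2.63, -2.64, -2.78 and -1.99 in NET-A arrays, against -1.08, -1.76, -2.39 and -1.03 in placebo arrays. The overlap came from NET-A array 4 and placebo array 3, and the log2 change was -0.95 ± 0.33 (SE) with an unadjusted p of 0.0195 and an adjusted p of 0.707 (limma). Ifit2 had -2.10, -1.92, -2.11 and -1.60 in NET-A arrays, against -1.21, -1.49, 0.25 and -1.68 in placebo arrays. Placebo array 3, low for most members, was the highest array for Ifit2, and without it the change was -0.47. A second Ifit2 probe, not measurable in the MPA experiment, was the brighter of the 2 on the NET-A arrays (mean level -1.15 in NET-A and -1.04 in placebo arrays) and gave -0.11. Ifit3 differed by -0.79 ± 0.31 (SE; unadjusted p 0.0325, adjusted p 0.78, limma).

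Among the sensors, Ddx58 had levels of -0.15, -0.32, -0.20 and 0.09 in NET-A arrays, against 0.05, 0.17, 0.34 and 0.33 in placebo arrays. Only NET-A array 4 reached into the placebo range, and the log2 change was -0.37 ± 0.13 (SE; unadjusted p 0.0247, adjusted p 0.735, limma). The gene's other probes gave -0.01, 0.11 and -0.54. Dhx58 had -2.24, -1.73, -2.58 and -1.74 in NET-A arrays, against -1.37, -1.73, -2.17 and -1.25 in placebo arrays, and Ifih1 (MDA5) and Zbp1, sensors of RNA and of Z-form nucleic acid, differed by -0.16 ± 0.21 and -0.62 ± 0.61 (SE). All 4 sensors lay below 0.

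Usp18 had levels of -1.75, -1.37, -2.10 and -1.33 in NET-A arrays, against -0.90, -0.66, -1.65 and -0.62 in placebo arrays. Its log2 change of -0.68 ± 0.27 (SE) had an unadjusted p of 0.0372 and an adjusted p of 0.792 (limma). Isg15, the modifier it removes, had 0.64, 0.52, 1.74 and 1.82 in NET-A arrays, against 0.78, 1.11, 0.27 and 0.96 in placebo arrays, with 2 NET-A arrays above and 2 below most placebo values. Irf7 had -1.44, -1.35, -0.71 and -0.42 in NET-A arrays, against -0.97, -0.88, -2.13 and -0.77 in placebo arrays. Irf1 had 2.35, 2.23, 1.96 and 2.96 in NET-A arrays, against 2.53, 2.26, 2.73 and 2.45 in placebo arrays. Both overlapped between the groups, and Irf9 and Stat2, partners in the type I complex, differed by -0.19 ± 0.16 and -0.46 ± 0.21 (SE); a second, dimmer Irf9 probe gave 1.07.

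Rsad2 encodes viperin, an antiviral enzyme of the radical SAM family, and was the 1 member higher at that threshold. Its level was 2.51, 2.58, 3.47 and 3.71 in NET-A arrays, against 1.55, 1.76, 2.38 and 2.21 in placebo arrays (probe at chr12:27127859-27127918, mm9). All NET-A arrays lay above all placebo arrays, with a log2 change of 1.10 ± 0.32 (SE; 2.14-fold), an unadjusted p of 0.00907 and an adjusted p of 0.637 (limma), and 0.97, 1.71 and 0.85 on slides 3, 4 and 5. The other 2 Rsad2 probes gave 1.05 and 1.23. In the MPA experiment the same probe had 2.79, 3.16, 3.64 and 2.57 in MPA arrays, against 3.96, 1.57, 2.56 and 1.58 in placebo arrays, a change of 0.62 ± 0.51 (SE) with overlapping groups.

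Erythroid, platelet and neutrophil markers were read beside Rsad2. The mean level of the 5 erythroid markers was 5.52, 5.43, 6.41 and 6.24 in NET-A arrays, against 4.36, 5.03, 5.12 and 4.84 in placebo arrays, and 4.74, 5.56, 5.61 and 5.08 in MPA arrays, against 5.24, 4.05, 4.75 and 3.92 in their placebo arrays. The array with the most erythroid signal also had the most Rsad2 among MPA arrays (array 3) and among placebo arrays (array 1 in the MPA experiment, array 3 in the NET-A experiment). Among NET-A arrays, arrays 3 and 4 were highest for both. The order was not the same throughout. MPA array 1 had the least erythroid signal of its group but more Rsad2 (2.79) than MPA array 4 (2.57). The 6 platelet markers averaged between -0.33 and 1.25 in NET-A arrays, against -1.90 and -0.39 in placebo arrays, and between 0.65 and 1.79 in MPA arrays, against 0.06 and 0.61 in placebo arrays, where array 1, the highest for Rsad2, had 0.33. The platelet averages were highest on NET-A array 3 and on MPA array 3. The 8 neutrophil markers kept averaged -1.05, -2.41, -2.73 and -1.78 on NET-A arrays 1 to 4, highest where Rsad2 was lowest, against -3.14 to -1.96 in placebo arrays; the 5 kept in the MPA experiment averaged between 0.17 and 2.10 in MPA arrays, against -1.83 and -0.05 in placebo arrays. Every listed erythroid and platelet marker was kept in both experiments. The part of these cells in the Rsad2 values was not tested.

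The 5 remaining effectors all overlapped between the groups in both experiments. Ifi44, Rtp4, the pro-apoptotic Xaf1, the ADP-ribosyltransferase Parp14 and Bst2 (tetherin, which holds budding virus at the cell surface) lay below 0 in NET-A, between -0.50 (Rtp4) and -0.04 (Bst2), and between -0.30 (Bst2) and 0.01 (Ifi44) in MPA; with normexp Bst2 and Parp14 lay above 0 in NET-A, at 0.07 and 0.06. The other 2 Parp14 probes, both dimmer, gave -0.45 and -0.61 in NET-A, against -0.06 for the probe used.

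In NET-A aortas the GTPases lay on the other side of placebo from most antiviral members. In the NET-A comparison 4 of the 5 lay above 0 with a median of 0.16, and all 5 lay above 0 with normexp. Iigp1 had levels of 1.49, 1.81, 0.87 and 3.80 in NET-A arrays, against 2.57, 1.20, 1.51 and 2.04 in placebo arrays. Igtp had 1.31, 1.70, 1.42 and 3.93 in NET-A arrays, against 2.23, 1.38, 1.06 and 1.74 in placebo arrays. NET-A array 4 alone stood above the placebo range for both genes. Gbp2 had 1.77, 1.96, 1.60 and 3.47 in NET-A arrays, against 2.16, 1.88, 1.74 and 1.98 in placebo arrays, and Gbp3 had 0.35, 0.92, 0.17 and 2.70 in NET-A arrays, against 1.04, 0.92, 0.63 and 1.40 in placebo arrays. Without NET-A array 4 all 5 GTPases lay below 0 with a median of -0.33, 27 of the 31 members lay below 0 with a median of -0.52, and 11 members were lower and 1 was higher at an unadjusted p under 0.05 (3.59% and 2.14% of all genes in that fit), with a smallest adjusted p of 0.737 (limma).

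The count of members lower in NET-A at an unadjusted p under 0.05 depended on single arrays. It was 9 with all arrays, 3 without placebo array 1 or without NET-A array 3, 4 without placebo array 4, 5 without NET-A array 2, 6 without placebo array 2 or without NET-A array 1, and 11 without placebo array 3 or without NET-A array 4, while between 2.97% and 3.89% of all genes were lower at that threshold in these fits. Mx2 and Oas2 were among them in every such fit, and Rsad2 was higher at that threshold in every such fit. On NET-A arrays 1, 2, 3 and 4, 29, 28, 27 and 12 of the 31 members lay below the mean of the placebo arrays. On placebo arrays 1, 2, 3 and 4 the number was 9, 15, 27 and 4, so placebo array 3 had as many low members as NET-A array 3.

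The 3 slides of the NET-A experiment differed in the same way. The median of the members was -0.69 on slide 3, -0.62 on slide 4 and 0.01 on slide 5, where NET-A array 4 and placebo array 3 both lie. Slides 3 and 4 had 1 array of each group, so only slide 5 allowed a fit within the slide. The sign was the same on all 3 slides for 16 of the 31 members, 14 below 0 and 2 above (Oas3 and Rsad2), against 32.2% of all genes with the same sign, 17.8% below and 14.5% above 0. With the slide as a block 8 members had an unadjusted p under 0.05 (Ifit1, Ifit3, Oas2, Oasl1, Mx1, Mx2 and Ddx58 lower, Rsad2 higher), against 8.54% of all genes, and the smallest adjusted p among members was 0.356, for Mx2 (limma).

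**Figure D3:**
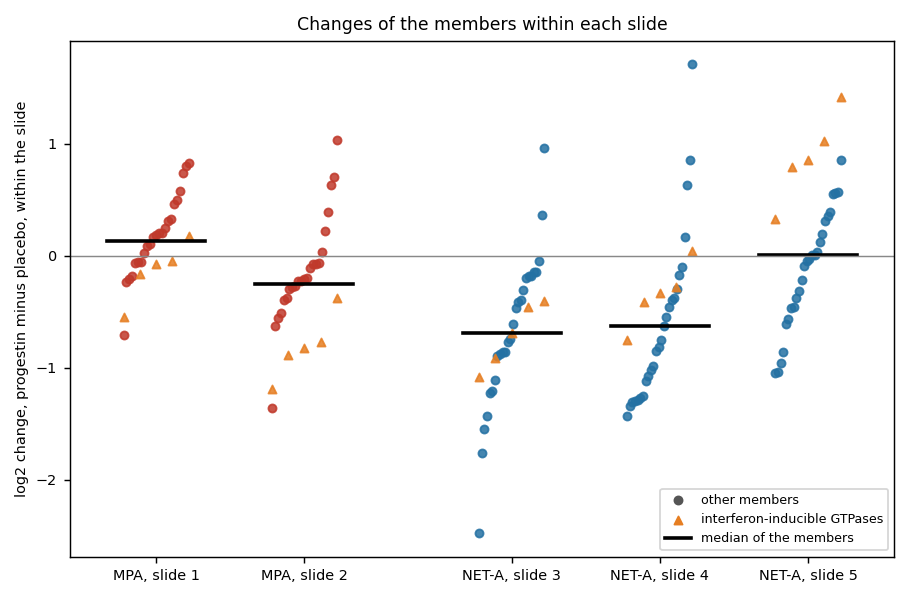
Log2 change of each kept member within each slide, as the mean of the progestin arrays minus the mean of the placebo arrays; triangles are the 5 interferon-inducible GTPases, circles the other members and the bar their common median. The medians are 0.14 and -0.25 on the MPA slides and -0.69, -0.62 and 0.01 on the NET-A slides, and on slide 5 all 5 GTPases lie above 0.

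The response to MPA minus the response to NET-A was tested on all 16 arrays, for the 28 members kept in both experiments; since doses are not in the labels, matched dosing is not known. No gene passed an adjusted p of 0.05 (limma, Benjamini-Hochberg over 15102 genes; 1015 genes, 6.72%, had an unadjusted p under 0.05), and thus 0 members. The unadjusted p was under 0.05 for 4 members, all above 0, against 4.15% of all genes above and 2.57% below 0 at that threshold. With normexp 8 members were above and 1 below 0 at that threshold, as were 18.4% and 9.95% of all genes. The difference was above 0 for 19 members and below 0 for 9 (49.4% of all genes lay above and 50.6% below 0), with a median of 0.16, against -0.0043 for all genes; with normexp background correction the members' median was -0.02.

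Ddx58 had the smallest p, with a difference of 0.81 (95% interval 0.41 to 1.22; unadjusted p 0.000642, adjusted p 0.318, limma). A dimmer Ddx58 probe changed by -0.01 in both MPA and NET-A, and another by 0.42 in MPA and -0.54 in NET-A. Mx2 followed with 1.08 (0.45 to 1.72; adjusted p 0.486, limma) and Ifit2 with 1.65 (0.62 to 2.68; adjusted p 0.527, limma), a value that rests on the probe whose NET-A change the gene's second probe did not share. Oas1a had 0.90 and an unadjusted p of 0.049 (adjusted p 0.74, limma), with NET-A contributing nearly all of it. The differences of Dhx58 and Ifit1 were 0.74 (-0.11 to 1.60) and 0.85 (-0.15 to 1.86). For Isg15 and Irf7 the difference was 0.07 (-1.01 to 1.16) and -0.21 (-1.07 to 0.65). The Isg15 interval leaves room for about 1 log2 unit either way. That of Irf7 leaves room for about 1 log2 unit below 0 and 0.65 above it.

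By role, the difference lay above 0 for all 4 sensors (median 0.53), all 3 IFIT genes (0.85) and all 3 OAS or OASL genes tested (0.37), and below 0 for all 5 GTPases (-0.78); with normexp Ifih1 among the sensors and Oasl2 lay below 0. The GTPase differences had wide intervals: Iigp1 gave -1.03 (-2.82 to 0.76), Igtp -0.84 (-2.53 to 0.84) and Gbp2 -0.78 (-2.04 to 0.48). Leaving out placebo array 4 of the MPA experiment together with NET-A array 4, an alternative added after the data were seen, turned all 5 GTPases above 0 (median 0.31), put 26 of the 28 members above 0 with a median of 0.53, and gave 10 members an unadjusted p under 0.05, all above 0 (4.86% of all genes), with a smallest adjusted p of 0.337 (limma).

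**Figure D4:**
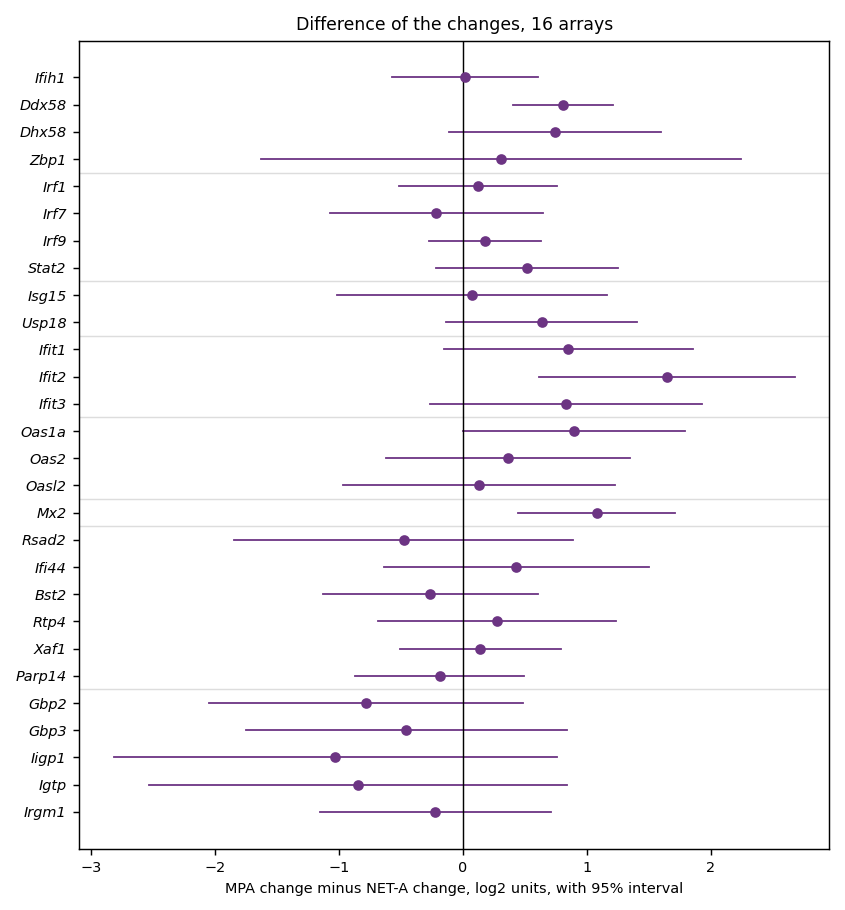
Difference of the log2 changes, MPA minus NET-A, for the 28 members kept in both experiments, with 95% intervals from the fit to 16 arrays. The intervals of Ddx58, Mx2 and Ifit2 lie clear of 0, that of Oas1a begins just above it, and the 5 GTPases at the bottom lie below 0 with wide intervals.

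On some arrays most members stood to one side of placebo, and on others roles or single members parted. Placebo array 4 of the MPA experiment had 26 of 28 members above the mean of the placebo arrays, with a median of 0.54, and NET-A array 4 had 19 of 31, with a median of 0.28 above its placebo mean. On both arrays the GTPases stood out most, by a mean of 1.14 and 1.66, but the IFIT and Mx genes averaged -0.38 and -0.71 on NET-A array 4. On MPA array 2 the IFIT genes averaged 0.35 above the placebo mean, through Ifit2 (level -0.36, placebo mean -1.76). Ifit1 (-1.74, placebo mean -1.39) lay below its placebo mean there, and Ifit3 (0.96 for both) lay at it. Mx2, the only Mx gene tested in MPA, lay 0.50 above a placebo mean that placebo array 1 (-3.09) lowered. The OAS genes and the GTPases averaged -0.70 and -0.91 on MPA array 2. Placebo array 3 of the NET-A experiment had 27 of 31 members below the placebo mean, with a median of -0.51. The genes outside the set whose levels followed the members' mean most closely, over the 16 arrays with group means taken off and among 11838 genes, were Irgm2 (Pearson r of 0.958), Ifi47 (0.946), a transcript the array names only NAP000023-001 (0.940), Psmb8 (0.936) and H2-DMb1 (0.929). Irgm2 and Ifi47 are further IRG GTPases, Psmb8 is a subunit of the immunoproteasome and H2-DMb1 takes part in loading MHC class II molecules. Without the 2 arrays farthest from the centre, NET-A array 4 and placebo array 4 of the MPA experiment, these r lay between 0.833 and 0.912.

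**Figure D5:**
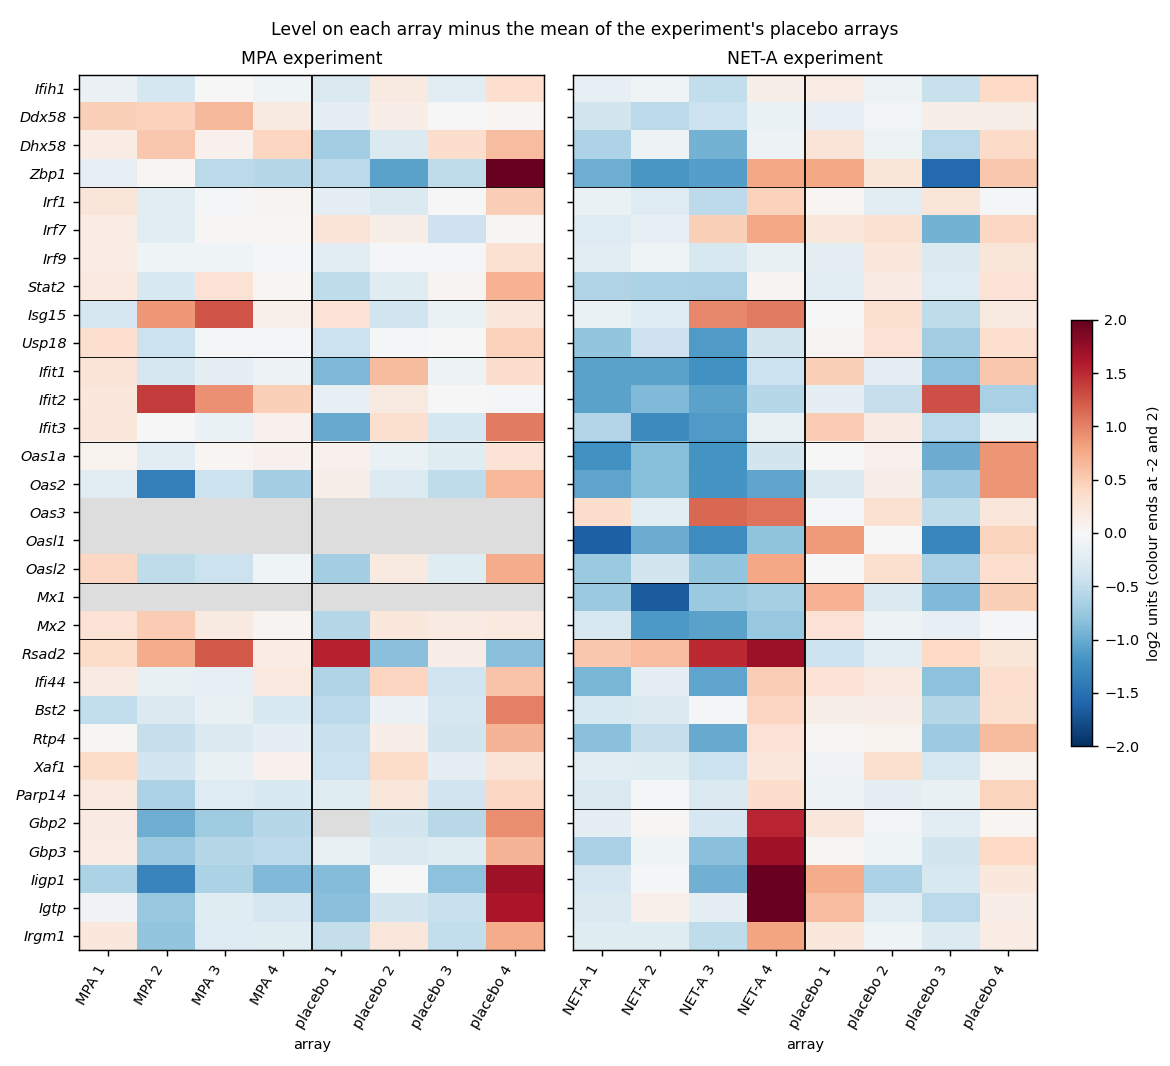
Each kept member on each array, as its level minus the mean of the 4 placebo arrays of the same experiment (log2 units, red above and blue below), with the progestin arrays left of their placebo arrays in each panel; grey cells were not tested or were left out. Placebo array 4 of the MPA experiment and NET-A array 4 are red in all 5 GTPase rows at the bottom, and NET-A arrays 1, 2 and 3 are blue in the IFIT, Mx and OAS rows except Oas3.

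Markers of immune cells and of skeletal muscle were read beside these arrays. The 11 macrophage markers kept averaged between 2.07 and 2.63 in MPA arrays, against 2.31 and 3.43 in placebo arrays, where placebo array 4 was the highest; they averaged between 1.16 and 1.51 in NET-A arrays, against 1.27 and 2.69 in placebo arrays. All 11 lay below 0 in both comparisons. On NET-A array 4 the natural killer cell markers averaged -1.56, against -3.64 to -2.80 on the other NET-A arrays and -3.22 to -2.43 on placebo arrays; 6 of 8 were kept and Eomes was never above background. T cell markers averaged -1.80 on that array, the highest of the NET-A arrays, within the range of -2.77 to -1.66 of the placebo arrays. The plasmacytoid dendritic cell list, a cell type known for making interferon alpha, averaged between -2.99 and -2.07 in NET-A arrays, against -3.54 and -2.84 in placebo arrays, with 4 of 5 kept. In the MPA experiment 2 of its 5 genes were kept, between -2.32 and -0.66 in MPA arrays, against -2.45 and 1.43 in placebo arrays. That placebo range came mainly from Cox6a2, also a muscle gene, which ran between -4.63 on placebo array 2 and 3.78 on placebo array 4. The skeletal muscle markers had the reverse order on these arrays, with 0.19 on placebo array 2 and -1.64 on placebo array 4. Skeletal muscle markers averaged 0.36, 0.08, 0.47 and -1.05 on NET-A arrays 1 to 4, against -1.04, -0.84, -1.21 and -1.04 on placebo arrays 1 to 4. Among the NET-A arrays, the 3 with the most low members were the ones high in muscle transcripts. Placebo array 3, with 27 of 31 members low, had the lowest muscle average of that experiment. The muscle markers averaged -2.10 to -1.83 on MPA arrays, against -1.59, 0.19, 3.40 and -1.64 on their placebo arrays. All 6 muscle markers kept lay above 0 in NET-A and all 5 kept lay below 0 in MPA. The part of these cells and of muscle in the values of the members was not tested.

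None of the ligand, receptor and signalling genes reached an unadjusted p of 0.05, although single changes were as large as those of Ddx58. Of 21 interferon ligand names 13 were on the array; 1 was measurable in the MPA experiment and 8 in the NET-A experiment, with changes between -0.50 and 0.57 in NET-A. The 17 receptor and signalling genes tested in each experiment differed by -0.42 to 0.34 in MPA and by -0.60 to 0.19 in NET-A, and 0 had an unadjusted p under 0.05 in either direction (limma). The receptor chains Ifnar1, Ifnar2, Ifngr1 and Ifngr2 differed by 0.25, -0.24, -0.03 and 0.08 in MPA and by 0.10, -0.10, -0.06 and 0.02 in NET-A. Jak1 and Tyk2 differed by -0.20 and -0.0040 in MPA and by -0.13 and 0.14 in NET-A.

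Of 19 genes of nucleic acid sensing and interferon induction tested in each experiment, 1 was higher in MPA at an unadjusted p under 0.05 (3.47% of all genes), the kinase gene Ikbke (0.43 ± 0.18, SE), and 1 was lower in NET-A (3.62% of all genes), Tbk1 (-0.41 ± 0.16, SE), whose kinase phosphorylates interferon regulatory factors. Of 62 other interferon-stimulated genes tested in MPA, 0 were higher and 3 were lower at that threshold (2.71% of all genes were lower): B2m, the light chain of MHC class I (-0.76 ± 0.24), Tap2, which carries peptides to it (-0.48 ± 0.21), and Slfn5 (-0.46 ± 0.20). Of 67 such genes tested in NET-A, 2 were higher and 5 were lower, against 2.52% and 3.62% of all genes. The 5 were the Schlafen genes Slfn8 and Slfn9 (-1.05 ± 0.43 and -0.78 ± 0.32), Trim30 (-0.57 ± 0.22), the sterol enzyme gene Ch25h (-0.52 ± 0.22) and Phf11 (-0.44 ± 0.19). None of these genes passed an adjusted p of 0.05, and their smallest adjusted p was 0.612, for Ube2l6.

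The 2 that were higher in NET-A were Isg20, an exonuclease, and Ube2l6, the enzyme that hands Isg15 to its targets. Isg20 had levels of 2.41, 2.85, 3.78 and 3.16 in NET-A arrays, against 1.25, 2.07, 2.30 and 2.03 in placebo arrays. Ube2l6 had 2.65, 3.05, 3.83 and 3.59 in NET-A arrays, against 1.85, 2.19, 2.38 and 2.21 in placebo arrays. Neither overlapped between the groups. Like the erythroid markers given above, both had NET-A array 3 highest and placebo array 1 lowest. Among NET-A arrays both were lowest on array 1, whereas the erythroid markers were lowest on array 2 (5.43, against 5.52 on array 1). In the MPA experiment both had placebo array 1 highest, as the erythroid markers and Rsad2 did among placebo arrays. The part of erythroid cells in the Isg20 and Ube2l6 values was not tested. In the test of the difference of the changes, 4.15% of all genes were above and 2.57% below 0 at an unadjusted p under 0.05 (limma). At that threshold 2 of 19 sensing and induction genes were above 0, Tbk1 (0.63) and Ikbke (0.61). Of 62 other interferon-stimulated genes, 1 was above 0, Mov10 (0.83), and 2 were below, Ube2l6 (-1.05) and Tap2 (-0.76). None of 17 receptor and signalling genes reached it. The smallest adjusted p of the named genes was 0.598 (limma).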

How the data were processed

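Total RNA (100 ng) of 16 aorta samples was labelled with Cy3 and hybridised to one-colour Agilent arrays, per the labels' protocols. The deposited scanner files hold processed signal intensity per spot, made with Agilent Feature Extraction 10.7.1.1 (MPA experiment) and 11.0.1.1 (NET-A experiment) per the file headers; the deposited series table holds log2 values, which matched the arrays after quantile normalization and centring of each probe (r of at least 0.988), so its level per probe is unknown. Outlier-flagged spots (0.274% of probe values) were dropped, spots of a probe averaged, and log2 intensity set against each array's 75th percentile. Genes of the NET-A files, which carry no gene names, were named through the same probes in the MPA files. Changes were fitted with limma 3.58.1 in R 4.3.3 (lmFit, eBayes, two-sided, Benjamini-Hochberg over all genes kept, threshold 0.05), after a check on simulated arrays. The number of arrays limits the precision. The slide of each array (5 in all) is that of the barcode in the name of its scanner file. All members were accounted for; values on every array are given for the 6 members with the smallest p in each comparison and for 8 reporter genes chosen by route. The members, roles, gene lists and naming rules were chosen with earlier results of these data known. Promoter sequences are RefSeq's (GRCm38.p6). Probe positions are mm9, per the file headers. Alternatives are listed in the closing section. Not every gene of the signalling list is reported here by name.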

Additional observations from a re-analysis of the deposited data

Results flagged for a closer look

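Of 117 groups of 4 arrays checked, 10 had 1 array set apart by more of the group's range than Dixon's 95% critical value for 4 samples; chance flags about 1 in 20. In NET-A, array 4 stood high for Igtp (level 3.93, the others at most 1.70), Zbp1 (-0.94, the others at most -2.70) and Stat2 (0.42, the others at most -0.23), and array 2 stood low for Mx1 (-6.11, the others at least -5.19). In the placebo group of the NET-A experiment, array 3 stood low for Irf7 (-2.13, the others at least -0.97) and Ifi44 (-2.75, the others at least -1.74), and array 4 stood high for Parp14 (1.92, the others at most 1.37). In MPA, array 2, the dimmest array, stood low for Oas1a (0.26, the others at least 0.52). In its placebo group, array 1 stood low for Mx2 (-3.09, the others at least -2.35) and array 4 stood high for Gbp3 (2.52, the others at most 1.68).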

How the results depend on the processing

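No member passed an adjusted p of 0.05 under any of the alternatives run: another background correction (normexp, which used median signals for the NET-A files), quantile normalization, no filter or a filter on every array, the mean of a gene's probes, the slide or the replicate number as a block, array weights, the deposited series table, fits within slides 1, 2 and 5, and leaving out each array. The smallest adjusted p of a member over these was 0.106 in MPA, 0.331 in NET-A and 0.0967 in the difference of the changes. With normexp 8 rather than 2 members in MPA, 6 rather than 10 in NET-A and 9 rather than 4 in the difference had an unadjusted p under 0.05, as did 28.1%, 2.66% and 28.3% of all genes. Over all genes, 1 passed with the slide as a block in MPA, and 1 in the difference with quantile normalization and with the replicate block; leaving out 1 array gave 0 to 1 genes in the difference and 0 in the other comparisons. Leaving out 1 array moved the members' median between -0.21 and 0.09 in MPA, between -0.52 and -0.15 in NET-A and between 0.086 and 0.34 in the difference; without both placebo array 4 of MPA and NET-A array 4, added after the data were seen, it was 0.53. With normexp 22 rather than 13 members had the same sign on both MPA slides; the cause was not tested. Same-numbered arrays did not deviate together in a steady way (r between -0.33 and 0.33). NET-A arrays 1 and 4 correlated best with the same-numbered placebo array, and the other progestin arrays did not. With 4 arrays per group this cannot decide whether the numbers pair the samples. Dim probes, such as Mx1, Oas1g, Oas3 and Oasl1, are limited by background.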
